A study of Mus musculus with 9 samples.

Results

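The miR-130 and miR-301 family was followed in glomeruli of mice with autoimmune glomerulonephritis (GN). Its members were taken by name as the guide-strand probes for mmu-miR-130a, mmu-miR-130b, mmu-miR-301a and mmu-miR-301b, which gave 4 of the 1135 miRNA probes of the array. All 4 were listed on all 9 arrays, as were 411 probes of the whole array. The family was chosen by measured values of GN against control, since miR-301a is among the miRNAs that the study lists as lower at both stages. Differences of the members from control are therefore given as a description without a test, and the members were tested in late against early GN alone.

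Glomeruli were isolated by magnetic bead perfusion from 3 groups of untreated female mice, with 3 mice per group and 1 array per mouse. The late GN group was B6.MRLc1 at 14 months of age. The early GN group was B6.MRLc1 at 9 months, and the control group was healthy C57BL/6 at 9 months. B6.MRLc1 is a congenic strain that carries the telomeric end of MRL/MpJ chromosome 1 on a C57BL/6 background and develops GN with age. There was no control at 14 months, so age and late disease cannot be told apart, and GN and the congenic interval differ from control together. Groups were taken from the sample titles, since the labelled strain of the early GN samples is C57BL/6 and the design text gives the ages the other way round. The deposited value is a background-corrected spot intensity multiplied by a single factor per array, in arbitrary units, and the number of arrays limits the precision.

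MicroRNAs guide Argonaute proteins to messenger RNAs, mostly through pairing of the seed, the stretch of bases 2 to 8 counted from the 5′ end. Members of this family carry the same seed and can therefore reach overlapping sets of targets. The family is known for repressing PPARγ, a nuclear receptor that restrains proliferation and inflammation, in adipocytes and in pulmonary vessels. miR-130a is also known for repressing the homeobox genes GAX and HOXA5 in human endothelial cells, and miR-301a for activating NF-κB in human tumour cells.

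The mature sequences are shown because the shared seed defines the family, and the capitals mark bases 2 to 8. They come from RefSeq on build GRCm38.p6, which held 3 of the 4 members, and miR-301b-3p is named only.
miR-130a-3p: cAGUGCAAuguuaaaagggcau
miR-130b-3p: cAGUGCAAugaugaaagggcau
miR-301a-3p: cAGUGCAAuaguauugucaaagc
miR-721: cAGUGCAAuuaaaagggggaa
miR-130a-3p lies at chr2:84741116-84741137 on the minus strand in Mir130a. miR-130b-3p lies at chr16:17124071-17124092 on the minus strand in Mir130b, within the span of 2610318N02Rik. Mir130b and Mir301b are separated by 257 bases on chromosome 16. miR-301a-3p lies at chr11:87113054-87113076 on the plus strand in Mir301, within the span of Ska2, a gene for a kinetochore protein. The annotation used gives gene spans without exons, so exonic and intronic positions were not assigned.

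miR-130a-3p and miR-130b-3p are both 22 bases long and differ by U11A and A13G, written with the base of miR-130a first and positions counted from the 5′ end. The 23-base miR-301a-3p shares the first 9 bases with either of them and differs at 10 positions from miR-130a and at 11 from miR-130b over 22 bases. Capture of miR-130a by the miR-130b probe, or the reverse, was not tested. RefSeq lists 7 mature mouse miRNAs with this seed, and 4 of them have a probe on the array, the fourth being miR-721. miR-130c, miR-6341 and miR-6389 carry the seed and have no probe of that name. miR-721 lies at chr5:136375777-136375797 on the minus strand.

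Arrays differed in the overall level of the deposited values, which include the factor of each array. Relative to control, the typical one of the 411 miRNAs was shifted by 0.44, 0.42 and 0.33 (median log2 difference) on late GN arrays 1 to 3, and by -1.03, -0.61 and 0.51 on early GN arrays 1 to 3. Early GN array 3 thus stood apart from the others of its group, and the members' differences that rest on it are given with and without it. On early GN arrays 1 and 3 the spot medians of miR-130a were 1560 and 1543, and its deposited values 1694.8 and 3574.71. The number of listed probes was 428, 498 and 738 on early GN arrays 1 to 3, 588 to 595 in control and 693 to 755 in late GN. The part of the array factor in these shifts was not tested. The arrays were on 5 slides, and a single slide held more than 1 group, early GN array 1 with control array 3.

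In late GN, all 4 members lay below control on every array, as did 21.7% of all miRNAs. In early GN, miR-301a and miR-301b lay below control on every array, as did 6.33% of all miRNAs. The early GN means of miR-301a and miR-301b were 0.519 and 0.532 times control, whereas miR-130a and miR-130b spread from well below to above control. The log2 differences from control of the 4 members ranged from -0.62 to -0.31 in late GN and from -1.01 to -0.34 at the early stage. Between late and early GN, no member passed an adjusted p of 0.05 by limma over the 411 miRNAs (adjusted p 0.33 to 0.96).

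miR-130a had normalized intensities of 1163.5, 1611.09 and 1877.69 in late GN, 1694.8, 1025.13 and 3574.71 in early GN, and 2072.63, 2798.26 and 2205.05 in control glomeruli. The late GN arrays were all below the lowest control array, whereas early GN held both the lowest and the highest of the 9 values. The means were 1551 ± 361 in late GN, 2098 ± 1322 in early GN and 2359 ± 386 in control (SD, n = 3 each). The log2 difference from control was -0.62 in late GN and -0.35 in early GN (SE 0.44 for both).

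miR-130b, encoded beside miR-301b, gave 87.26, 66.75 and 88.77 in late GN, 59.75, 43.91 and 186.15 in early GN, and 101.69, 96.11 and 101.54 in control glomeruli. The 3 control arrays lay close together and above every late GN array, and early GN array 3 exceeded all others. Its means were 80.9 ± 12.3 in late GN, 96.6 ± 78.0 in early GN and 99.8 ± 3.18 in control (SD, n = 3 each). The ratio of means to control was thus 0.811 in late GN and 0.968 in early GN. With log2 values, where a single high array weighs less, miR-130b differed from control by -0.31 in late GN and by -0.34 in early GN (SE 0.44).

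miR-301a gave 193.91, 172.6 and 210.61 in late GN, 92.25, 123.93 and 189.91 in early GN, and 253.11, 266.94 and 263.18 in control glomeruli. No GN array reached the control values, and early GN array 3 lay among the late GN arrays. The means were 192 ± 19.1 in late GN, 135 ± 49.8 in early GN and 261 ± 7.15 in control (SD, n = 3 each). miR-301a differed from control by -0.45 at the late stage and by -1.01 at the early stage on the log2 scale (SE 0.44). In the fits of only the groups compared, the SE of miR-301a was 0.16 at the late stage and 0.52 at the early stage. Before any scaling, the spot medians of miR-301a were 124 to 187 in late GN, 106 to 140 in early GN and 162 to 188 in control. Early GN was thus already below control in the scanner output, whereas late GN overlapped with it through array 3 alone (187). Late GN arrays 1 and 2 were at 134 and 124. The scanner gain setting was 37 on late GN array 3, 35 on the control arrays and 35 or 36 on the other GN arrays. The part of the gain was not tested.

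miR-301b gave 57.09, 50.1 and 56.21 in late GN, 27.6, 38.82 and 68.35 in early GN, and 69.0, 91.13 and 93.39 in control glomeruli. The late GN arrays were close together and below control, and early GN array 3 came within 1 unit of the lowest control array. The means were 54.5 ± 3.81 in late GN, 44.9 ± 21.0 in early GN and 84.5 ± 13.5 in control (SD, n = 3 each). Differences from control were -0.62 at the late stage and -1.0 at the early stage on the log2 scale (SE 0.44).

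Without early GN array 3, the early GN difference from control was -0.83 for miR-130a, -0.96 for miR-130b, -1.29 for miR-301a and -1.36 for miR-301b, so that all 4 members were then lower by more than 1.5-fold. Arrays 1 and 2 of early GN were below every control array for all 4 members. The typical miRNA of the array was itself shifted by -1.03 and -0.61 on these arrays. Without early GN array 3, 56.4% of all miRNAs were called lower in early GN than in control (limma, adjusted p under 0.05). Nothing is read from the members' counts.

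**Figure D1:**
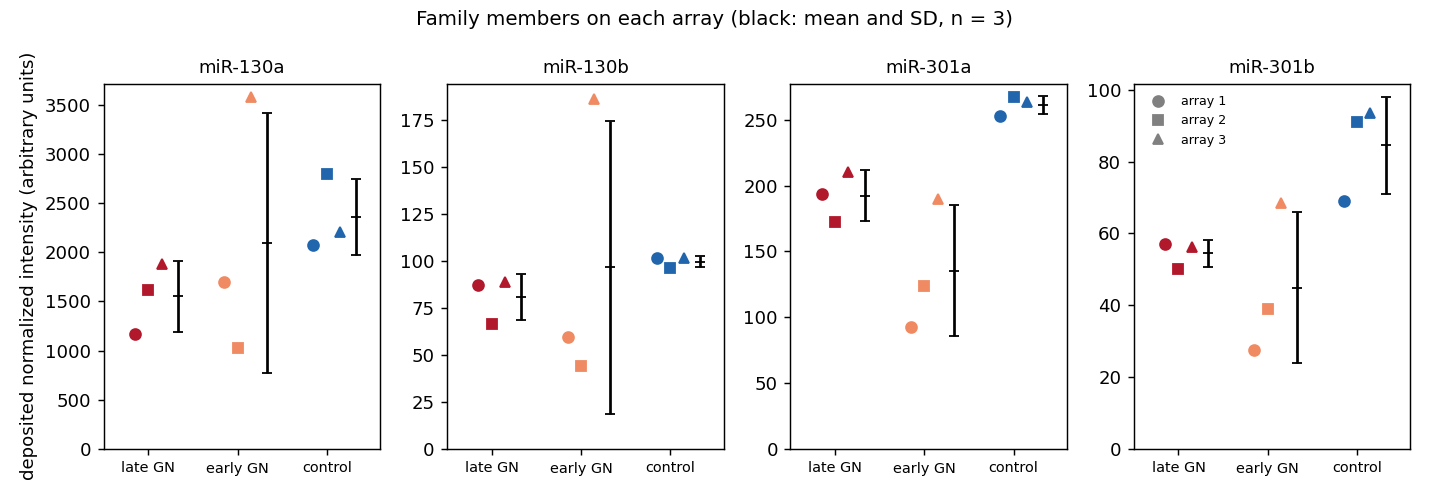
Deposited normalized intensity (arbitrary units, linear axis from 0) of each family member on each array of late GN, early GN and control, with the array number as the marker shape and the mean and SD (n = 3) in black. All late GN points lie below the control points in every panel, and the early GN points of miR-130a and miR-130b span the control points through array 3.

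Signals differed in their distance from the background. Spots of miR-130a stood 230 to 604 blank standard deviations above the mean of the 1818 blank spots of their array, and those of miR-301a 25.3 to 52.3. Those of miR-130b stood 9.31 to 31.3 and those of miR-301b 6.04 to 18.8 above it, so that all 4 members were clear of the blanks on every array, with the smallest margin for miR-301b on early GN array 1.

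The other strands of the same hairpins were close to the blanks. The probes for miR-130a*, miR-130b*, miR-301a* and miR-301b* were listed on 4, 1, 2 and 1 of the 9 arrays, and no spot of theirs exceeded the blank mean by more than 2.55 blank standard deviations. miR-721, which in mouse fibroblasts is known to aid reprogramming together with miR-130b and miR-301b, was listed at 14.05, 9.95 and 10.31 in late GN, on array 3 alone at 6.59 in early GN, and on none of the control arrays. Its spots lay between -0.09 and 2.71 blank standard deviations from the blank mean, so these values were near the background in all groups, and no fold is given.

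Counts of members were set beside those of all 411 miRNAs. All late GN arrays lay below all control arrays for 4 of 4 members and for 21.7% of all miRNAs. All early GN arrays lay below all control arrays for 2 of 4 members and for 6.33% of all miRNAs, and all 6 GN arrays did so for 2 of 4 members and for 4.87% of all miRNAs. A ratio of means at least 1.5-fold lower than control was found for 2 of 4 members in late GN, where 10.5% of all miRNAs met it, and for 2 of 4 in early GN, where 25.1% did. The choice of the family used these comparisons, and nothing is read from the counts.

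The family's differences from control had a log2 median of -0.53 at the late stage and -0.67 at the early stage. The median over all 411 miRNAs was 0.45 in late GN and -0.38 in early GN. In late GN, 8.27% of all miRNAs had a lower difference than miR-301b, 8.52% than miR-130a, 17.8% than miR-301a and 24.1% than miR-130b. In early GN, 6.33% were lower than miR-301a and 7.54% lower than miR-301b, against 51.8% for miR-130a and 52.8% for miR-130b. By these ranks the miR-301 members lay near the low end of the array in early GN and the miR-130 members near its middle. Since the family was chosen by its values against control, the ranks are a description and nothing is concluded from them. The early GN ranks include the array that stood apart from its group, and they are not given without it.

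**Figure D2:**
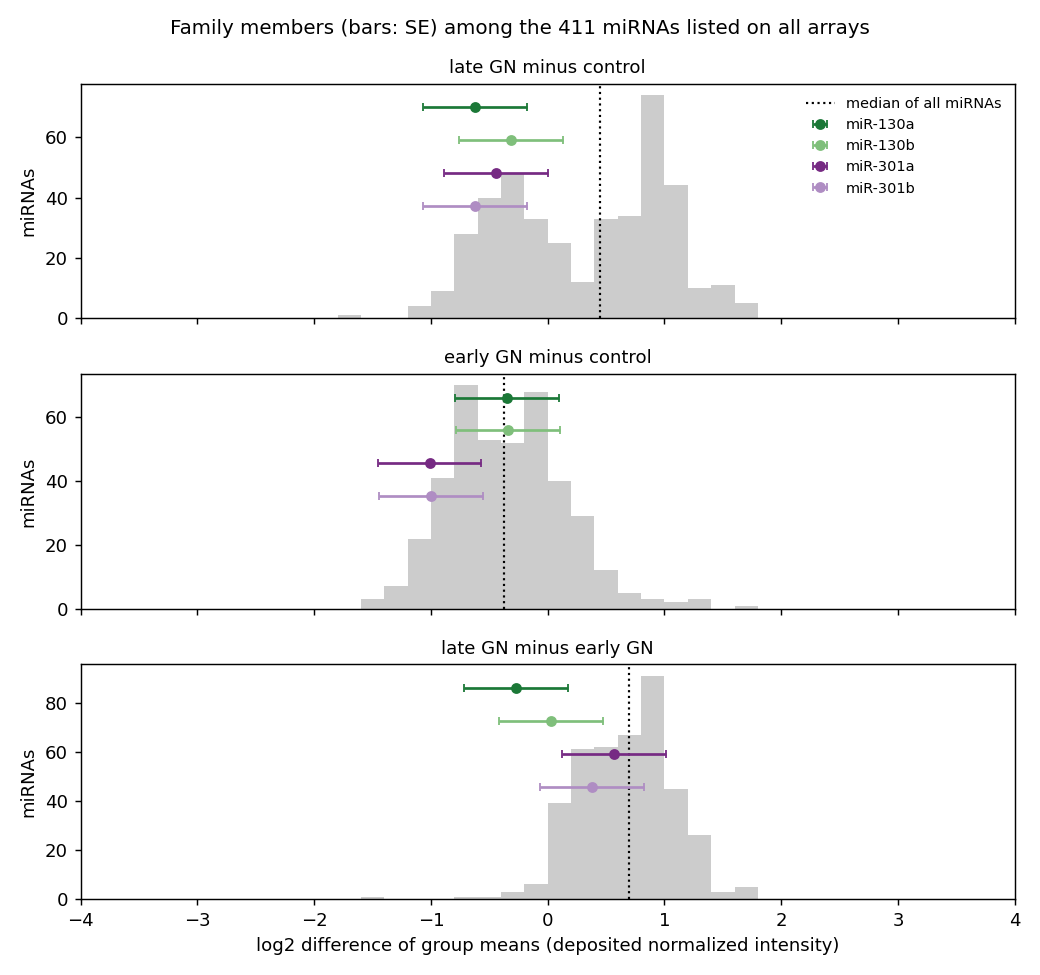
Histograms of the log2 difference of group means for the 411 miRNAs listed on all arrays, from top to bottom late GN minus control, early GN minus control and late GN minus early GN, with the family members as points (bars, SE) and the median of all miRNAs as a dotted line. In the early GN panel miR-301a (-1.01) and miR-301b (-1.0) lie left of the median (-0.38) and both miR-130 members lie close to it, and in the bottom panel miR-130a (-0.27) lies at the left edge.

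Late GN was then tested against early GN, a comparison that the choice of the family had not named. The choice did use the early and late values against control, so the test is not independent of it. By limma with Benjamini-Hochberg adjustment, 6 of the 411 miRNAs (1.46%) were higher in late GN and 1 (0.243%) was lower, and no member was among them. The log2 difference was -0.27 for miR-130a (95% confidence interval -1.14 to 0.60, adjusted p = 0.643) and 0.03 for miR-130b (-0.84 to 0.90, adjusted p = 0.96). It was 0.57 for miR-301a (-0.30 to 1.44, adjusted p = 0.33) and 0.38 for miR-301b (-0.49 to 1.25, adjusted p = 0.524). These intervals leave room for differences of more than 2-fold, downward for miR-130a and upward for miR-301a and miR-301b.

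The median difference of all 411 miRNAs between late and early GN was 0.70, above all 4 members. Only 0.973% of all miRNAs had a lower late minus early difference than miR-130a and 3.65% had a lower one than miR-130b, against 25.8% for miR-301b and 39.4% for miR-301a. Without early GN array 3, the difference was 0.84 for miR-301a (adjusted p = 0.00409), 0.73 for miR-301b (adjusted p = 0.0122), 0.65 for miR-130b (adjusted p = 0.0177) and 0.21 for miR-130a (adjusted p = 0.491), by the same limma test. In that fit 91.5% of all miRNAs were called higher in late GN, so that 3 of 4 members was not a share above the background.

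Because the arrays differed in the overall level of the deposited values, each was also shifted so that the 411 miRNAs had the same median on every array. This scale is called the common median here. On that scale all 4 members again lay below control on every late GN array, with log2 differences of -0.94 for miR-130a, -0.63 for miR-130b, -0.76 for miR-301a and -0.94 for miR-301b. All late GN arrays lay below all control arrays for 35.5% of all miRNAs on this scale, against 4 of 4 members. In early GN, miR-301a and miR-301b differed from control by -0.63 and -0.62 and lay below it on every array, whereas miR-130a and miR-130b differed by 0.04 and 0.04. The share of all miRNAs with all early GN arrays below control was 23.4%.

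The common median narrowed the early GN arrays of the miR-301 members and turned the order of the stages. miR-301a stood at -0.54, -0.45 and -0.89 relative to the control mean on early GN arrays 1, 2 and 3, and miR-301b at -0.64, -0.48 and -0.73, so that array 3 was no longer the highest of its group. Late minus early GN was negative for all 4 members on this scale, at -0.97 for miR-130a (95% confidence interval -1.58 to -0.36, adjusted p = 0.104), -0.67 for miR-130b (-1.20 to -0.14, adjusted p = 0.153), -0.13 for miR-301a (-0.52 to 0.25, adjusted p = 0.675) and -0.32 for miR-301b (-0.72 to 0.08, adjusted p = 0.295) by limma. None passed the threshold, and 15.3% of all miRNAs had an unadjusted p under 0.05 with a lower late GN mean, among them miR-130a and miR-130b. The direction between the stages thus changed with the scaling for miR-130b, miR-301a and miR-301b and not for miR-130a.

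**Figure D3:**
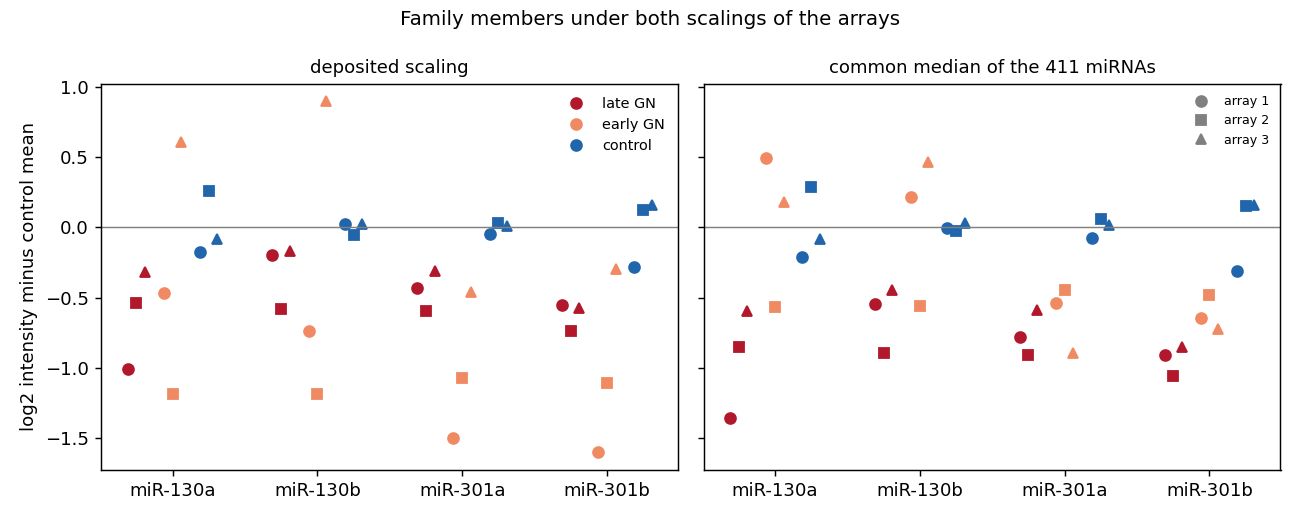
Log2 intensity of each member minus its control mean on each array of late GN, early GN and control, with the deposited scaling at the left and a common median of the 411 miRNAs at the right, and the array number as the marker shape. Late GN arrays lie below the control arrays for all 4 members in both panels, and the miR-301 members on early GN array 3 move from -0.46 and -0.29 at the left to -0.89 and -0.73 at the right.

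Differences between 2 members within the same array do not depend on the factor of that array. miR-301a minus miR-301b in early GN was -0.01 on the log2 scale relative to control, and so was miR-130a minus miR-130b. Each miR-130 member minus each miR-301 member was 0.65 to 0.67 above control in early GN, with the rise on arrays 1 and 3 and not on array 2. For miR-130a minus miR-301a the 3 early GN arrays stood at 1.04, -0.12 and 1.07 relative to the control mean. For miR-130b minus miR-301b they stood at 0.86, -0.07 and 1.19. Early GN overlapped with control in all 6 pairs.

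In late GN, miR-130a minus miR-301a stood at -0.58, 0.06 and -0.01 relative to the control mean, and miR-130b minus miR-301b at 0.36, 0.16 and 0.41. Late GN also overlapped with control in all 6 pairs. Late minus early GN ranged from -0.84 for miR-130a minus miR-301a (exact permutation p = 0.3, two-sided) to 0.19 for miR-301a minus miR-301b (p = 0.1 by the same exact test). The smallest p that 3 arrays against 3 allow is 0.1, and all p adjusted over the 6 pairs were 0.48 or more, so no difference between members was shown between the stages.

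**Figure D4:**
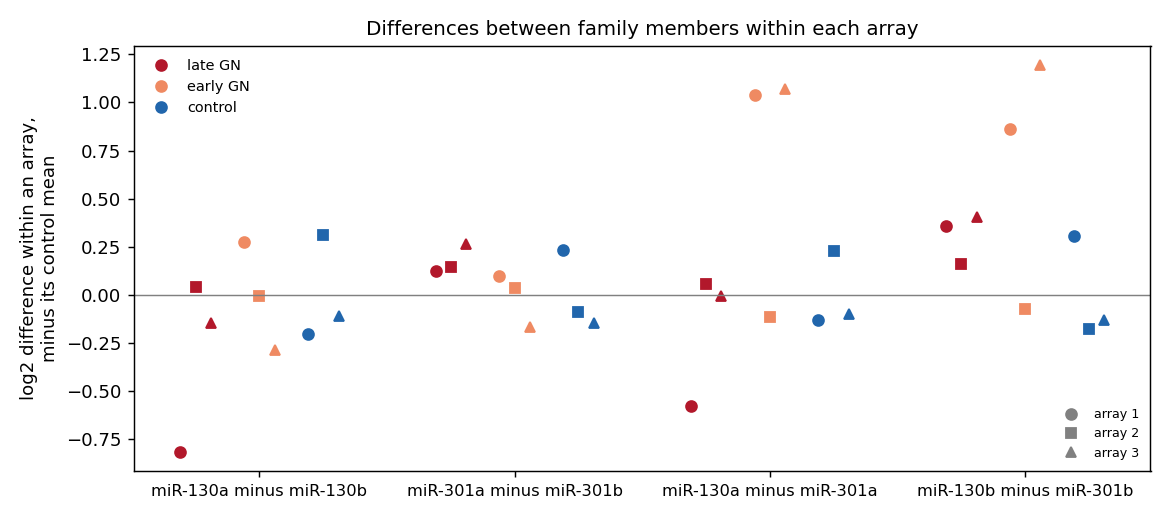
Log2 difference between 2 members on the same array, minus the mean of that difference in control, for 4 of the 6 pairs on each array of late GN, early GN and control (marker shape, array number). In the 2 pairs at the right, early GN arrays 1 and 3 lie from 0.86 to 1.19, above all control arrays, and early GN array 2 lies among them.

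On the slide shared by both groups, early GN array 1 minus control array 3 was -0.38 for miR-130a, -0.77 for miR-130b, -1.51 for miR-301a and -1.76 for miR-301b on the log2 scale, 1 array against 1, with the overall shift of early GN array 1 included. On the common median the same differences were 0.58 for miR-130a, 0.19 for miR-130b, -0.56 for miR-301a and -0.80 for miR-301b, so the miR-130 members changed sign and the miR-301 members did not. With the slide as a random block (limma, duplicateCorrelation), late minus early GN was -0.26 for miR-130a, 0.05 for miR-130b, 0.59 for miR-301a and 0.41 for miR-301b (adjusted p 0.346 to 0.929). No slide held both late and early GN arrays, so the block cannot separate the stages from the slides.

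miRNAs whose seeds overlap with that of the family were given as a group, since they can share part of its targets. miR-148a, miR-148b and miR-152 have the family's bases 1 to 7 at their bases 2 to 8, and miR-19a and miR-19b have its bases 3 to 8 at their bases 2 to 7. The shared stretch is in capitals in an example of each kind, with miR-152-3p at chr11:96850439-96850459 and miR-19a-3p at chr14:115044048-115044070 (GRCm38.p6, plus strand).
miR-152-3p: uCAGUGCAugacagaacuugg
miR-19a-3p: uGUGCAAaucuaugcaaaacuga
All 5 had a lower log2 mean than control in late GN (39.7% of all miRNAs) and in early GN (76.9%). Their median log2 difference from control was -0.35 in late GN, where all 411 miRNAs had 0.45, and -0.90 in early GN, where all had -0.38. Of the 5, 0 passed an adjusted p of 0.05 by limma in any of the comparisons, or by the methods' test for pairs of groups. Of all miRNAs, 0.243% passed as lower than control in late GN and 0.0% in early GN by limma. At an unadjusted p under 0.05 by limma, 0 of the 5 were lower in late GN (2.92% of all miRNAs) and 3 in early GN (13.6%). miR-148a, which is known to repress DNA methyltransferases, differed from control by -0.46 at the late stage and -1.09 at the early stage. The difference of miR-148b was -0.24 at the late stage and -0.99 at the early stage, and that of miR-152 was -0.44 late and -0.76 early. miR-19a, of the miR-17-92 cluster, stood at -0.35 in late GN against -0.90 at the early stage (SE 0.44 for all). On the common median, 5 of 5 were lower in late GN and 0 of 5 in early GN at an adjusted p under 0.05 by limma, where 29.9% and 3.89% of all miRNAs were.

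A further list held 6 miRNAs tied to the PPARγ circuit. miR-27a and miR-27b are known to repress PPARγ in adipocytes, and miR-204 and miR-322 with miR-503 are known to lie downstream of PPARγ in pulmonary vessels, where the human counterpart of miR-322 is miR-424. miR-21, known to repress PPARα in kidney fibrosis, was added to these. None of the 6 passed an adjusted p of 0.05 by limma in any of the comparisons. At an unadjusted p under 0.05 by limma, 1 was higher (27.5% of all miRNAs) and 1 lower (2.92%) at the late stage. At the early stage 3 were lower (13.6%). By the methods' test for pairs of groups, 1 was higher and 4 were lower in late GN after adjustment, where 38.0% of all miRNAs were higher and 15.1% lower, and 0 passed in early GN. The median log2 difference from control was -0.51 at the late stage and -0.89 at the early stage. miR-27a differed from control by -0.47 late and -0.87 early, and miR-27b by -0.55 late and -0.74 early. The differences were -0.99 late and -1.05 early for miR-204, and -0.61 late and -0.91 early for miR-322 (SE 0.44 for all). Only miR-21 was higher than control in late GN, at 1.17 (adjusted p = 0.105, limma), and its late minus early GN difference was 1.23 (adjusted p = 0.0727, limma). On the common median, miR-21 was higher and the other 5 were lower in late GN at an adjusted p under 0.05 by limma, where 32.1% of all miRNAs were called higher and 29.9% lower. In early GN 1 of the 6, miR-204, was called lower on that scale, where 3.89% of all were.

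The 5 miRNAs outside the family with the profile most like its mean were miR-24, miR-25, miR-29a, let-7b and miR-196b. Likeness was the root mean square difference of log2 profiles, each relative to its control mean, over the 9 arrays. It was 0.08 for miR-24 and 0.10 for each of the other 4, and its median over the 407 miRNAs outside the family was 0.674. The 4 members themselves lay 0.26 to 0.30 from their own mean. miR-24 differed from control by -0.51 in late GN and -0.67 in early GN.

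Markers of glomerular and other cells were read on the same arrays. In bulk RNA, fewer cells of a type and less miRNA per cell cannot be told apart. The podocyte list (8 of 8 on the array and listed on all arrays) summed to 43762 to 49556 in late GN, 29979 to 72281 in early GN and 67816 to 74866 in control. Its median log2 difference from control was -0.65 in late GN and -0.73 in early GN. The endothelial pair, miR-126-3p and miR-126-5p, was also listed throughout, with a median difference of -0.56 in late GN and -0.95 in early GN. The mesangial and smooth muscle list (3 of 3 listed throughout) had a median difference of -0.21 in late GN and -0.72 in early GN. Its members were split in late GN, with miR-143 at -0.21, miR-145 at -0.54 and miR-214 at 0.54.

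The leukocyte list (5 on the array) summed to 375.0 to 554.4 in late GN, 93.9 to 404.4 in early GN and 223.0 to 274.8 in control, with miR-155 not listed on early GN arrays 1 and 2. The proximal tubule list summed to 999.9 to 1205 in late GN, 322.8 to 954.1 in early GN and 658.0 to 1004 in control, through miR-192 and miR-194, since miR-215 was listed on 2 of the 9 arrays and on none of the control arrays. The red blood cell list had 2 of its 3 miRNAs on the array, of which miR-451 was listed throughout and miR-144 on no early GN array, and summed to 430.4 to 689.2 in late GN, 205.5 to 797.3 in early GN and 840.1 to 960.6 in control. The part of these cell types in the family's differences was not tested.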

How the data were processed

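Total RNA from glomeruli of 9 mice was hybridized to single-colour 3D-Gene arrays, and the authors extracted and globally normalized the spot signals. The deposited normalized values are linear fluorescence intensity, and the deposited scanner output is spot median intensity. Normalized values of the 411 probes listed on all 9 arrays (407 with a name in the scanner output) were taken to log2 without a pseudocount. All groups were fitted together with limma 3.58.1 in R 4.3.3, 2-sided, with Benjamini-Hochberg adjustment over the 411. The prior degrees of freedom were infinite, so every miRNA had the same SE. The fit was tested on simulated data. Values were tabulated with Python 3.11.15 and pandas 2.3.3.

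The members, lists and tests were chosen with earlier results of these data known. Named were the 4 members, their star strands, miR-721, up to 4 miRNAs of each list in its written order (miR-21 and the cell markers beyond these were named after their values were seen), and the 5 most alike profiles. Alternatives were other array scalings (common median, normexp with offset 50 and quantile, 75th percentile of scanner signal), a pseudocount of 16, other probe sets and groups, blocks, the methods' t-test and each array left out. Scanner signals at or below the blank mean were set to 2.51, for 20 values. The series table, identical for 1123 shared identifiers, was not used further.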

Additional observations from a re-analysis of the deposited data

How the results depend on the processing

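Each result was recomputed under each alternative. The normexp and quantile and the 75th percentile alternatives start from the scanner output of 407 named probes, so they change the background and the probe set together with the scaling. Of 120 values of members under alternatives other than leaving out an array, 93 were kept, 8 moved further and 19 changed sign. A difference from control was kept if it had the same sign and moved by less than 1 SD. Late minus early GN was kept if it had the same sign and side of the threshold. Other probe sets, fits of only the groups compared and the replicate block cannot alter a member's difference of means. Those values were bound to keep their sign. The cause of the changes of sign was not tested.

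miRNAs called in late GN against control numbered 17. They were 255 with the common median, 153 with normexp and quantile, 177 and 155 with the 75th percentile of detected and of all probes, 42 with the pseudocount, 26 for probes listed on all arrays compared, 272 when the fit held only these groups, 0 with slide as a random block (limma, where 83 higher and 9 lower had an unadjusted p under 0.05) and 218 by the methods' t-test. In early GN against control 1 was called, and in the same order of alternatives 44, 58, 15, 22 and 15, then 0 when the fit held only these groups, 0 with the slide block and 0 by the methods' t-test, where 31, 67 and 19 passed an unadjusted p. In late against early GN 7 were called, and 1 with the common median, 0 with the 3 other scalings, 0 when the fit held only these groups, 4 with the slide block and 0 by the methods' t-test, where 46 passed an unadjusted p. Leaving out 1 array gave 0 to 228 calls for late GN against control, 0 to 237 for early GN against control and 0 to 376 for late against early GN, with the highest count of each without early GN array 3.

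Late minus early GN changed sign with the scaling. miR-130b gave -0.67 with the common median, -0.30 with normexp and quantile, -0.53 and -0.81 with the 75th percentile of detected and of all probes, -0.012 with the pseudocount and -0.26 by the methods' t-test. miR-301a gave -0.13, -0.084, -0.038 and -0.32 and miR-301b -0.32, -0.064, -0.012 and -0.29 under those 4 scalings. Early GN minus control changed sign for miR-130a, at 0.036 with the common median and 0.12 with normexp and quantile, and for miR-130b, at 0.042, 0.012 and 0.023 with the common median and the 75th percentiles. miR-301a in early GN moved to -0.63, -0.42, -0.65 and -0.64 under the 4 scalings, and in late GN to -0.76 with the common median and -0.96 with the 75th percentile of all probes. miR-301b moved to -0.36 in early GN with normexp and quantile and to -1.12 in late GN with the 75th percentile of all probes.

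Without each array in turn, late minus early GN ranged from -0.69 to 0.21 for miR-130a, -0.39 to 0.65 for miR-130b, 0.32 to 0.84 for miR-301a and 0.078 to 0.73 for miR-301b, the highest of each without early GN array 3. Early GN minus control ranged from -0.83 to 0.074, -0.96 to 0.080, -1.29 to -0.77 and -1.36 to -0.70 for the 4 members in that order, and changed sign for both miR-130 members without early GN array 2. Late GN minus control ranged from -0.77 to -0.43, -0.39 to -0.18, -0.51 to -0.37 and -0.76 to -0.54, and kept its sign.

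Replicate numbers were not taken as pairs. Deviations of arrays with the same number correlated at -0.22 to 0.34. These values cannot decide on pairing, since arrays with different numbers were not compared. A replicate block gave 16, 1 and 5 calls for late GN against control, early GN against control and late against early GN, and changed no call of a member (late minus early GN 0.57 and adjusted p = 0.354 for miR-301a, limma). Dim spots limit miR-301b, and 3 arrays per group limit all.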
